A study of Mus musculus with 4 samples.

Results

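The genes described here are 10 megakaryocyte and platelet genes, Fli1, Meis1, Itgb3, Fermt3, Gp5, P2rx1, Plek, Nbeal2, Rab27b and Tubb1, out of 2982 genes that the authors' 6 deposited tables list in all. They were picked by symbol, as genes of this lineage that at least 1 of the tables lists, so being listed at least once is no finding about them. RNA was sequenced from mouse G1E cells, an erythroblast line that lacks the transcription factor GATA-1. There were 4 groups. In G1E control the genotype is labelled control, GATA-1 WT has the wild-type factor, and GATA-1 2RA and GATA-1 V205M have mutant forms of it. All 4 groups were induced with β-estradiol, the control included, and each group was 1 sample. V205M is a change known to weaken binding of GATA-1 to its partner FOG-1, while what 2RA alters is not in the labels. How the forms of GATA-1 were brought into the cells, and whether each line is a single clone, was not given in the sources used here.

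Megakaryocytes are the large bone marrow cells that shed platelets, and they share a progenitor with red cells. GATA-1 acts in both lineages: with FOG-1 it turns on genes of either fate, and in megakaryocytes it works beside ETS factors such as FLI1. The platelet depends on surface receptors that sense vessel damage and released nucleotides, on an integrin that binds fibrinogen once activated from inside the cell, on granules that are emptied on activation, and on a ring of microtubules that holds its shape.

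The RefSeq promoters of Gp5, P2rx1 and Plek are shown because these 3 genes shared 1 order of levels while the promoters differ in the GATA letters searched here. Among G1E control, GATA-1 2RA and GATA-1 V205M, they were highest in GATA-1 2RA and lowest in GATA-1 V205M. For Gp5 the lowest place followed from the comparisons that list it. The sequences are from RefSeq on GRCm38.p6 and run 5′ to 3′ on the strand of the gene through bases before its RefSeq start. Capitals mark the GATA letters AGATAA or TGATAA and the ETS letters AGGAAG or CGGAAG on either strand. Other spellings were not searched, so AGATAG in Gp5 and P2rx1 stays unmarked. Gp5 is read from chr16:30310782-30311031 (minus strand), P2rx1 from chr11:72998895-72999102 (plus strand) and Plek from chr11:17008719-17008968 (minus strand).
Gp5: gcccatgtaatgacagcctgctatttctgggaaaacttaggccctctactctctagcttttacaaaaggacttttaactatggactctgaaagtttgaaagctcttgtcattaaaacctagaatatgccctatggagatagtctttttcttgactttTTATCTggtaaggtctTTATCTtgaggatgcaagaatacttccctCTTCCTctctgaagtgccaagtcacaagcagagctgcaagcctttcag
P2rx1: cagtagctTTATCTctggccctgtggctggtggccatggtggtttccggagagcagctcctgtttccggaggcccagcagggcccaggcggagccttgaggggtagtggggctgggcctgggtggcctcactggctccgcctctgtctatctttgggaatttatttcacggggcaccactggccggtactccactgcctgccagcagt
Plek: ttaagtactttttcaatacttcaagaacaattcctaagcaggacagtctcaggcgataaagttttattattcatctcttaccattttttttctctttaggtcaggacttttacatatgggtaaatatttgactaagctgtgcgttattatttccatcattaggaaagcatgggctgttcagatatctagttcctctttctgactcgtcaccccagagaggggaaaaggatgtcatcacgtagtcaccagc
For P2rx1 the last 42 bases before the RefSeq start are left out, since the GENCODE M21 annotation places them in an exon. Gp5 held GATA letters at 93 and 77 bases before its start and ETS letters at 48, P2rx1 held GATA letters at 242, and Plek held neither. The Plek window, however, lies inside the gene as GENCODE M21 places it (16971206 to 17052381). Bases before that 5′ end of Plek were not searched. RefSeq promoters were matched for 7 of the 10 genes, and the 250 bases before the start were searched in each. GATA letters stood in 2 of the 7 (Gp5 and P2rx1) and in 16.6% of 32851 mouse promoters. ETS letters stood in 4 (Gp5, Meis1, Nbeal2 and Tubb1) and in 39.2% of all. Those of Meis1, 12 bases before its RefSeq start, lie inside the gene as GENCODE M21 places it. The RUNX letters TGTGGT were found in Fermt3 and Meis1 and in 14.0% of all, the MEIS letters TGACAG in Gp5 and in 15.9%, and the NF-E2 and MAF letters TGCTGAG in none of the 7 and in 6.21% of all. These are matches of letters only, and no binding was measured.

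A table holds a gene when its adjusted p is under 0.01 and its levels in the 2 groups differ by more than 2-fold, and 12931 genes were tested. "Listed" below means past both limits in the authors' deposited table for that pair. A gene has a level in a group only where a table lists it, so a missing level means that no comparison with that group passed, that the gene was not tested, or that it was left out as having no reads, which the sources used here do not settle. Levels are in scaled reads, that is, reads divided by the size factor of the library. Whole reads could be recovered from them in 6 count columns, 2 each for G1E control and GATA-1 V205M and 1 each for the other groups, which held from 276064 to 2178397 reads over the listed genes. Both paired columns carry the label of 1 sample, and no level, fold or interval here treats them as replicates. Intervals are 95%, come from the pooled reads of a group and cover counting error only. In a group with 2 columns the authors' level is the plain mean of both, while pooling gives the deeper column more weight. A printed level or fold can therefore lie near 1 end of its interval. With 1 sample per group there was no replicate check of any difference. In such cell pools, more cells that carry an RNA and more RNA per cell cannot be told apart.

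Fli1 and Meis1, the transcription factors of the set, were both highest in GATA-1 2RA. Fli1 encodes an ETS factor needed for megakaryocyte maturation, and lies on chromosome 9 at 32422204 to 32542861 (GRCm38, minus strand). Its level was 36.4 scaled reads in G1E control (49 and 11 reads in the 2 columns), 89.4 in GATA-1 WT (142 reads), 331 in GATA-1 2RA (463 reads) and 47.6 in GATA-1 V205M (49 and 53 reads). The GATA-1 2RA level was the highest, and the levels of GATA-1 V205M and G1E control lay within counting error of each other. Fli1 was 9.09-fold (6.41 to 11.2) higher in GATA-1 2RA than in G1E control, with an adjusted p of 3.6e-18 in the authors' deposited table. Against GATA-1 WT the difference was 3.70-fold (3.06 to 4.50), and against GATA-1 V205M 6.95-fold (5.65 to 8.77). Fli1 was also listed as higher in GATA-1 WT than in G1E control, by 2.46-fold (1.67 to 3.13), with the weakest adjusted p of the set in the authors' deposited table, 8.1e-03. That change drops below 2-fold when levels are rescaled over the genes that have a level in all 4 groups.

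Meis1 encodes a homeobox factor of stem cells and megakaryocytes (chromosome 11, 18879817 to 19018985, minus strand). It stood at 15.4 scaled reads in G1E control (13 and 7 reads), 17.6 in GATA-1 WT (28 reads), 276 in GATA-1 2RA (387 reads) and 57.2 in GATA-1 V205M (62 and 61 reads). Both mutants were above G1E control and GATA-1 WT, which did not differ beyond counting error (1.15-fold, 0.731 to 2.52). The increase over G1E control was 18.0-fold (13.5 to 34.9) in GATA-1 2RA and 3.72-fold (2.69 to 7.35) in GATA-1 V205M. Meis1 was the only 1 of the 10 genes listed as higher in GATA-1 V205M than in GATA-1 WT, at 3.24-fold (2.13 to 5.05, adjusted p = 9.6e-04 in the authors' deposited table). GATA-1 2RA exceeded GATA-1 V205M by 4.83-fold (3.96 to 6.0). Meis1 shares 896 of its 10532 exon bases with Gm16140 on the opposite strand and 1029 with Gm37818 on the same strand, and how shared reads were counted was not given in the sources used here.

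**Figure D1:**
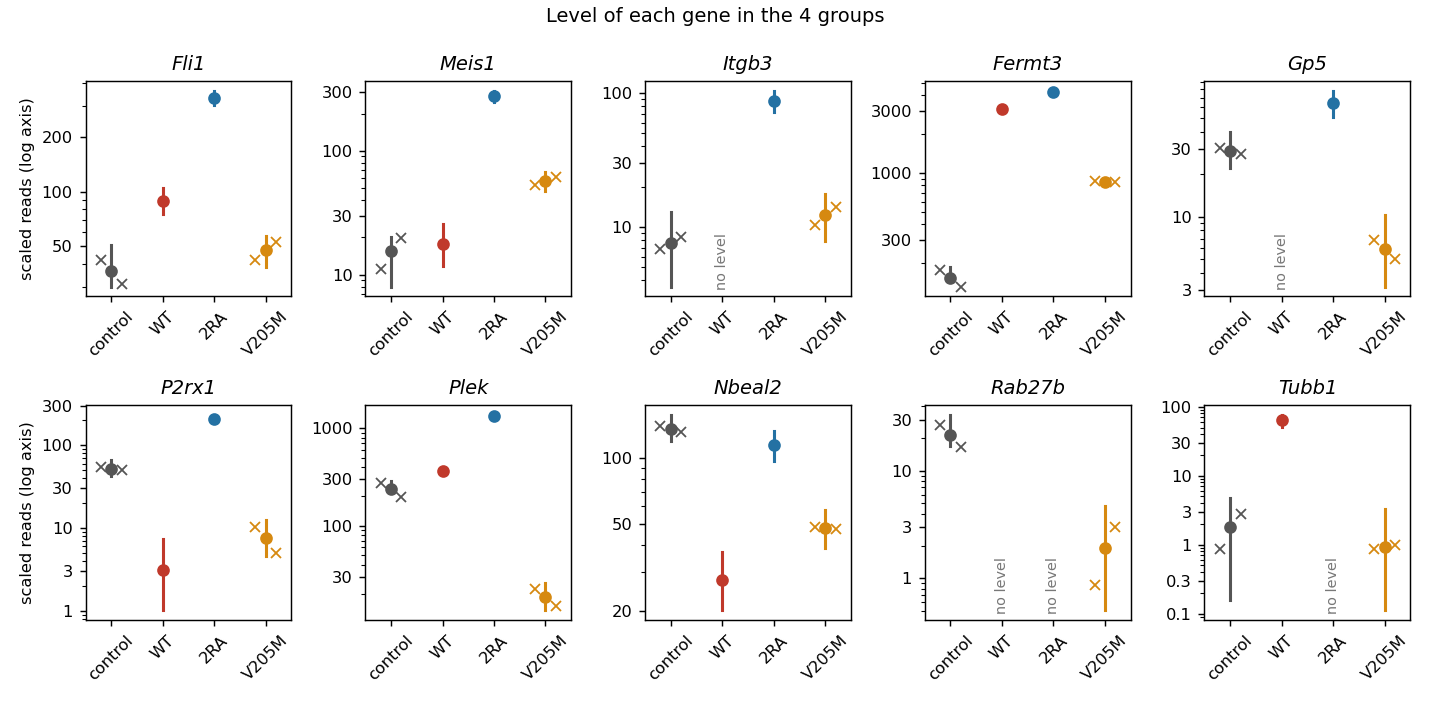
Level of each gene in scaled reads (log axis, a different range in each panel) in the 4 groups. Filled points are the authors' levels, bars 95% counting intervals from pooled reads, and crosses the 2 count columns of G1E control and of GATA-1 V205M. The GATA-1 2RA point is the highest in 7 of the 8 panels that have one, the exception being Nbeal2, where G1E control stood at 136 and GATA-1 2RA at 114.

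The integrin gene and its activator also had their highest known levels in GATA-1 2RA. Itgb3 has no level in GATA-1 WT, however, and Fermt3 was not listed between GATA-1 2RA and GATA-1 WT. Itgb3 encodes the beta chain of the platelet fibrinogen receptor and lies on chromosome 11 at 104608000 to 104670476 (plus strand). It had 7.62 scaled reads in G1E control (8 and 3 reads), 87.2 in GATA-1 2RA (122 reads) and 12.2 in GATA-1 V205M (12 and 14 reads), and no level in GATA-1 WT. The level in GATA-1 2RA was 11.4-fold (6.52 to 24.8) that of G1E control and 7.16-fold (4.72 to 11.5) that of GATA-1 V205M. G1E control and GATA-1 V205M did not differ beyond counting error (1.60-fold, 0.796 to 3.74). Itga2b, the alpha chain that pairs with the Itgb3 product on platelets, was in none of the 6 tables.

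Fermt3 encodes kindlin-3, which binds the tails of beta integrins and is needed for their activation in blood cells (chromosome 19, 6998958 to 7019469, minus strand). Its level was 154 scaled reads in G1E control (176 and 132 scaled reads in the 2 columns), 3099 in GATA-1 WT (4920 reads), 4204 in GATA-1 2RA (5885 reads) and 857 in GATA-1 V205M (1001 and 852 reads). Every form of GATA-1 went with more Fermt3 RNA than the control, least in GATA-1 V205M. Over G1E control the fold was 27.4 (22.4 to 29.0) for GATA-1 2RA, 20.2 (16.5 to 21.4) for GATA-1 WT and 5.58 (4.54 to 5.94) for GATA-1 V205M. For GATA-1 2RA this was the 10th largest of 628 listed increases over G1E control, with an adjusted p of 4.9e-198 in the authors' deposited table. GATA-1 2RA and GATA-1 WT differed by 1.36-fold (1.31 to 1.41), which was not listed. GATA-1 V205M was 3.62-fold (3.43 to 3.82) below GATA-1 WT. Fermt3 shares 89 of 5784 exon bases with Trpt1 on the opposite strand.

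Among surface receptors, Gp5 and P2rx1 were high in GATA-1 2RA and low in GATA-1 V205M. Gp5 encodes glycoprotein V, a subunit of the platelet receptor for von Willebrand factor (chromosome 16, 30307685 to 30310779, minus strand). It had 29.4 scaled reads in G1E control (36 and 10 reads), 63.6 in GATA-1 2RA (89 reads) and 5.94 in GATA-1 V205M (8 and 5 reads), with no level in GATA-1 WT. GATA-1 V205M was 4.95-fold (2.67 to 10.1) below G1E control and 10.7-fold (5.88 to 20.6) below GATA-1 2RA. The 2.16-fold (1.46 to 3.08) difference between GATA-1 2RA and G1E control was not listed. On the log2 scale it went from 1.09 to 0.33 under median-ratio rescaling and to 0.78 by total reads. Of the other genes of this receptor, Gp1ba was listed as higher in GATA-1 2RA (74.3 scaled reads) than in G1E control (25.4), by 2.93-fold (2.36 to 5.44), while Gp1bb and Gp9 were in no table.

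P2rx1 encodes an ATP-gated cation channel of platelets (chromosome 11, 72999103 to 73015200, plus strand). It stood at 52.2 scaled reads in G1E control (63 and 18 reads), 3.15 in GATA-1 WT (5 reads), 209 in GATA-1 2RA (292 reads) and 7.66 in GATA-1 V205M (12 and 5 reads). GATA-1 2RA was above the control, and both GATA-1 WT and GATA-1 V205M were below it. The increase in GATA-1 2RA was 4.0-fold (3.06 to 5.09), and the decreases were 16.6-fold (6.94 to 53.3) in GATA-1 WT and 6.81-fold (3.97 to 12.2) in GATA-1 V205M. With the second V205M column alone the last fold would be 10.4. GATA-1 2RA exceeded GATA-1 WT by 66.2-fold (28.1 to 206), with an adjusted p of 1.9e-20 in the authors' deposited table. GATA-1 2RA exceeded GATA-1 V205M by 27.2-fold (16.3 to 46.2), or 41.7-fold with the second V205M column alone. GATA-1 WT and GATA-1 V205M did not differ beyond counting error (2.43-fold, 0.884 to 8.66).

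Plek had the widest span among the 3 granule and secretion genes of the set, Plek, Nbeal2 and Rab27b. It encodes pleckstrin, the main protein kinase C substrate of platelets (chromosome 11, 16971206 to 17052381, minus strand). Its level was 237 scaled reads in G1E control (321 and 71 reads), 368 in GATA-1 WT (584 reads), 1319 in GATA-1 2RA (1846 reads) and 18.7 in GATA-1 V205M (26 and 15 reads). GATA-1 2RA was the highest and GATA-1 V205M the lowest, with the other groups between them. The ratio of the mutants was 70.6-fold (51.1 to 97.2), the 9th largest of 466 listed increases in GATA-1 2RA over GATA-1 V205M, with an adjusted p of 6.5e-160 in the authors' deposited table. Plek rose 5.57-fold (4.60 to 5.74) over G1E control in GATA-1 2RA and fell 12.7-fold (9.81 to 19.2) below it in GATA-1 V205M. It was 19.7-fold (14.1 to 27.3) lower in GATA-1 V205M than in GATA-1 WT, and 3.59-fold (3.27 to 3.94) higher in GATA-1 2RA than in GATA-1 WT. The 1.55-fold (1.26 to 1.63) difference between GATA-1 WT and G1E control was not listed and changed sign under rescaling. In the control, Plek was the only 1 of the 10 genes whose 2 columns differed beyond counting error (275 against 199 scaled reads, ratio 1.38, 1.07 to 1.82), and no gene did so in GATA-1 V205M. Plek shares 199 of 4486 exon bases with Cnrip1 on the opposite strand.

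Nbeal2, a BEACH domain protein needed to form platelet alpha granules, was the 1 gene of the 8 with levels in G1E control, GATA-1 2RA and GATA-1 V205M that was not highest in GATA-1 2RA (chromosome 9, 110624789 to 110654161, minus strand). It had 136 scaled reads in G1E control (164 and 47 reads), 27.7 in GATA-1 WT (44 reads), 114 in GATA-1 2RA (160 reads) and 47.6 in GATA-1 V205M (56 and 47 reads). G1E control and GATA-1 2RA were within counting error of each other (1.19-fold, 0.981 to 1.5), and the other groups were lower. Nbeal2 fell 4.91-fold (3.59 to 7.08) below the control in GATA-1 WT and 2.86-fold (2.28 to 3.71) in GATA-1 V205M. GATA-1 2RA stood 4.12-fold (2.94 to 5.90) above GATA-1 WT and 2.40-fold (1.86 to 3.10) above GATA-1 V205M. The last change, with an adjusted p of 1.5e-03 in the authors' deposited table, comes within 2-fold when levels are rescaled to a median ratio. Nbeal2 shares 22 of 9554 exon bases with Mir8107 on the same strand.

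Rab27b, a small GTPase of granule release, had levels in 2 groups only. It stood at 21.7 scaled reads in G1E control (31 and 6 reads) and at 1.93 in GATA-1 V205M (1 and 3 reads). The decrease was 11.2-fold (4.71 to 50.7), with an adjusted p of 2.1e-03 in the authors' deposited table, and read from the V205M columns singly it would be 25.3-fold or 7.23-fold. The size of the fold thus rests on 4 reads.

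Tubb1 encodes beta-1 tubulin, the main beta tubulin of the platelet microtubule ring (chromosome 2, 174450695 to 174457882, plus strand), and was the 1 gene of the set with its highest known level in GATA-1 WT. It had 63.6 scaled reads in GATA-1 WT (101 reads), 1.83 in G1E control (1 read in each column) and 0.931 in GATA-1 V205M (1 read in each column), and no level in GATA-1 2RA. The ratio of GATA-1 WT to G1E control was 34.8-fold (13.1 to 406), and to GATA-1 V205M 68.4-fold (18.5 to 576). With each control column alone, the first ratio would be 74.2-fold or 22.7-fold. Since 1 is the lowest count in every column of the tables, and the sources used here do not say whether 1 was added to each count, these ratios hold for the deposited counts only. In the authors' deposited tables the adjusted p was 2.3e-06 against G1E control and 1.0e-08 against GATA-1 V205M. Tubb1 has levels only because it was listed as higher in GATA-1 WT than in each of these groups. The place of its highest known level thus followed from the listing.

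Per kilobase of exon, the only scale on which genes are compared with each other here, Fermt3 was the most abundant of the 8 genes with a level in GATA-1 2RA, at 727 scaled reads per kilobase. Plek followed at 294, Fli1 at 94.9 and P2rx1 at 79.5. Gp5 (28.9), Meis1 (26.3), Itgb3 (14.8) and Nbeal2 (12) were lower on the same scale. In GATA-1 WT, Fermt3 stood at 536 scaled reads per kilobase and Tubb1 at 45.2, while P2rx1 was at 1.20.

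GATA-1 2RA against GATA-1 V205M compares the mutants directly, and here the genes moved 1 way. All 8 genes with a level in both, out of the 10, were listed as higher in GATA-1 2RA, where 6.23% of the tested genes were listed, 3.60% as higher and 2.62% as lower. Because each gene was chosen as listed in some table, the share listed among the 10 is not set against this background. The 8 folds ran from 2.40 (Nbeal2) to 70.6 (Plek), and the median log2 difference was 2.76, beside 0.15 over the 1550 genes with a level in both groups. As all 8 were listed as higher in this comparison, a raised median followed from the listing. The medians here and below carry the same choice of genes and are given for scale only.

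**Figure D2:**
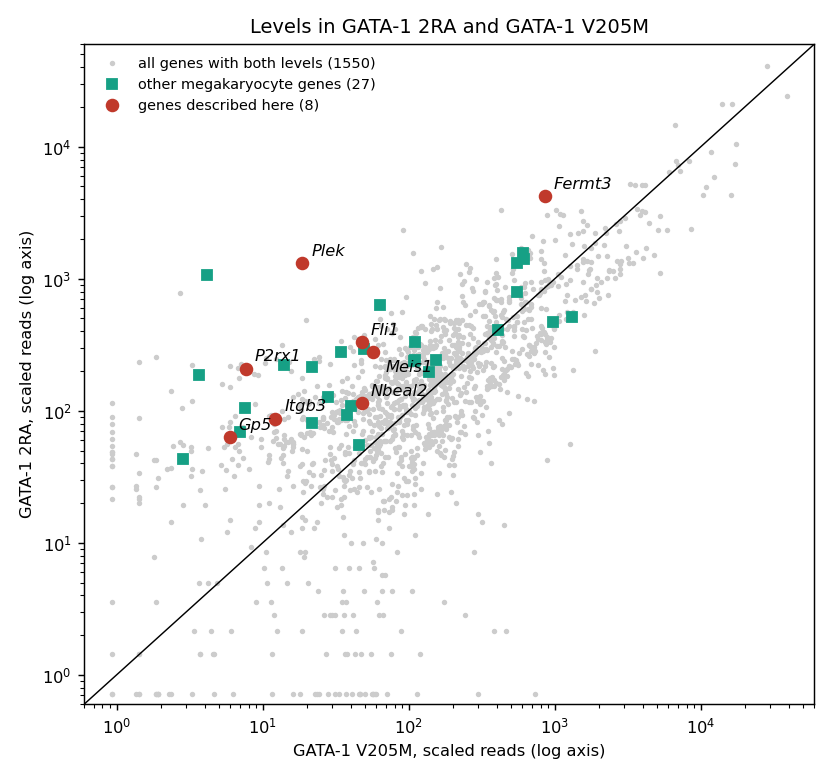
Levels in GATA-1 2RA against GATA-1 V205M in scaled reads (both axes log), for the 8 genes with both levels (red), 27 other megakaryocyte and platelet genes (green) and all 1550 genes with both levels (grey). The diagonal marks equal levels, and all 8 red points and 24 of the 27 green points lie above it. Over the 1550 genes the median log2 difference was 0.15, and the red and green genes were chosen with earlier results known.

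Set against G1E control, GATA-1 2RA had 6 of the 10 genes listed as higher (Fermt3, Meis1, Itgb3, Fli1, Plek and P2rx1) and none as lower, where 7.46% of tested genes were listed, 4.86% as higher and 2.61% as lower. The median log2 difference of the 8 genes with both levels was 2.81, beside 0.40 over 1580 genes. In GATA-1 V205M against G1E control, Fermt3 and Meis1 were listed as higher and Plek, Rab27b, P2rx1, Gp5 and Nbeal2 as lower, 7 of the 10, where 8.15% of tested genes were listed, 4.83% as higher and 3.32% as lower. Here the median over all 10 genes was -1.02 on the log2 scale, beside 0.25 over 1813 genes. GATA-1 WT against G1E control gave 5 listed genes, Tubb1, Fermt3 and Fli1 higher and P2rx1 and Nbeal2 lower, where 13% of tested genes were listed, 8.17% as higher and 4.86% as lower. Its median over the 7 genes with both levels was 0.63, beside 1.05 over 2040 genes. These 3 comparisons share the G1E control library, so their values for a gene are not independent.

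Against GATA-1 WT, GATA-1 2RA had 5 genes listed as higher (P2rx1, Meis1, Nbeal2, Fli1 and Plek) and none as lower, where 7.38% of tested genes were listed, 3.33% as higher and 4.04% as lower. The median of the 6 genes with both levels was 1.94 on the log2 scale, beside -0.14 over 1554 genes. In GATA-1 V205M against GATA-1 WT, Meis1 was listed as higher and Tubb1, Plek and Fermt3 as lower, where 9.36% of tested genes were listed, 3.70% as higher and 5.65% as lower. That median was -0.90 over 7 genes, beside -0.40 over 1802.

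**Figure D3:**
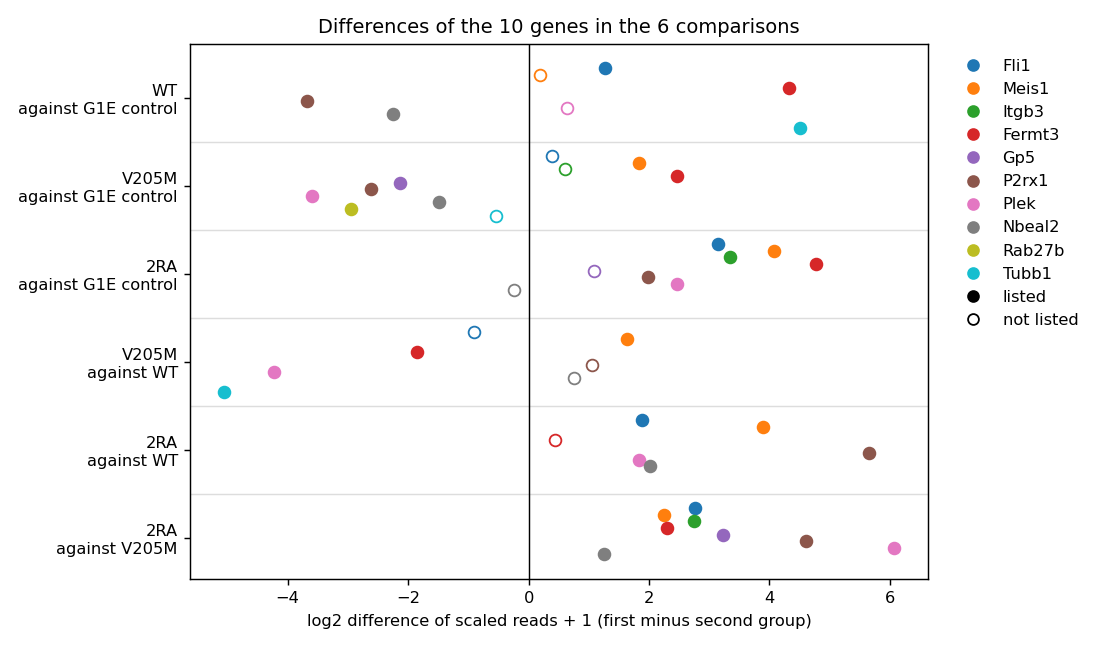
Difference in log2(scaled reads + 1) of each gene in the 6 comparisons (first group minus second), filled where the authors' table lists the gene and open where it does not. All points of GATA-1 2RA against GATA-1 V205M lie to the right of 0 (8 genes), and in GATA-1 V205M against G1E control 5 filled points lie to the left and 2 to the right.

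Of the 6 genes with a level in each of the 4 groups, 5 were highest in GATA-1 2RA, as were 263 of the 1157 genes with 4 levels (22.7%). Among the 8 genes with levels in G1E control, GATA-1 2RA and GATA-1 V205M, 7 were highest in GATA-1 2RA, against 42.9% of 1295 genes. For Itgb3 this place followed from the listing. It has levels only because it was listed as higher in GATA-1 2RA than in G1E control and than in GATA-1 V205M. The shares over all genes with such levels are thus given for scale only. The lowest of these 3 groups was GATA-1 V205M for Plek, P2rx1, Gp5 and Nbeal2, and G1E control for Itgb3, Fli1, Fermt3 and Meis1. The genes thus parted into those that GATA-1 V205M had below the control and those that it had at or above it, where Fli1 changes sign (-0.09 on the log2 scale) under median-ratio rescaling. For Gp5 the lowest place followed from the listing. Gp5 has levels only because it was listed as lower in GATA-1 V205M than in G1E control and than in GATA-1 2RA. The values describe these libraries, and the genes were chosen with results known.

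The other genes of the lineage were read from 5 lists of 123 further symbols (Evi1 and Mecom in them name 1 gene), of which 35 were in any table. The lists were chosen with earlier results of these data known, so the shares over all tested genes are given for scale only. In GATA-1 2RA against GATA-1 V205M, 20 of the 123 were listed as higher and 2, Gfi1b and Gata2, as lower (3.60% and 2.62% of tested genes). Against G1E control, GATA-1 2RA had 17 higher and 2 lower (4.86% and 2.61% of tested genes). GATA-1 V205M had 4 higher and 12 lower (4.83% and 3.32%), and GATA-1 WT 11 higher and 11 lower (8.17% and 4.86%). Gata1, in which the groups differ by genotype, is itself counted as higher in each of these comparisons and in GATA-1 2RA against GATA-1 V205M. It is also counted as lower in GATA-1 V205M against GATA-1 WT. Against GATA-1 WT, 14 were higher and 3 lower in GATA-1 2RA (3.33% and 4.04% of tested genes). In GATA-1 V205M, 6 were higher and 9 lower than in GATA-1 WT (3.70% and 5.65%). Of the 26 with levels in G1E control, GATA-1 2RA and GATA-1 V205M, 18 were highest in GATA-1 2RA, as were 42.9% of the 1295 genes with these levels.

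**Figure D4:**
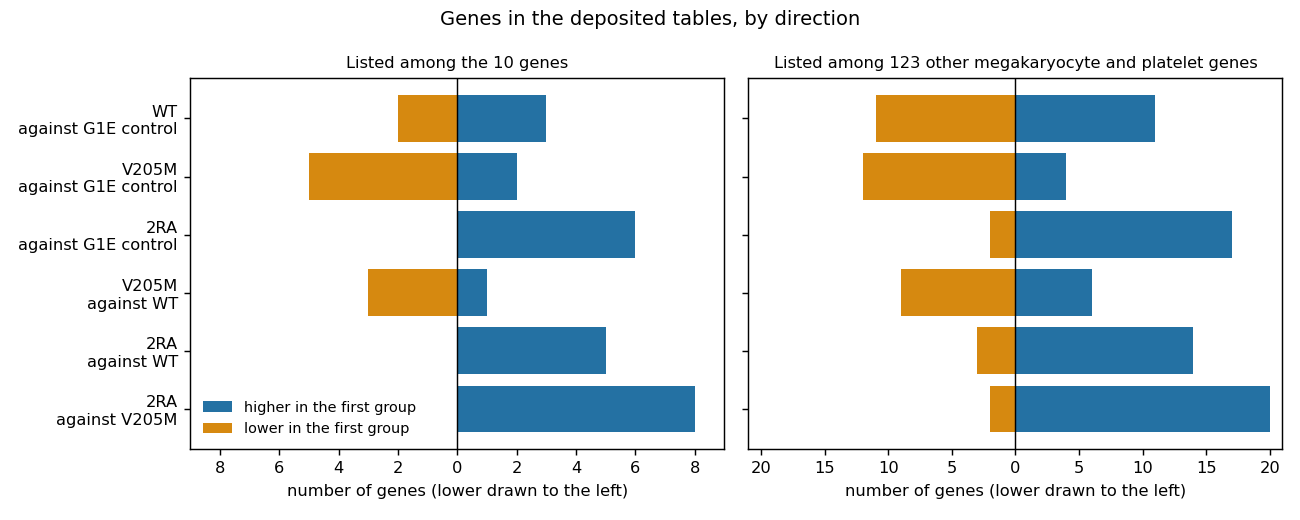
Number of listed genes in each comparison, higher in the first group to the right and lower to the left, for the 10 genes (left) and for 123 other megakaryocyte and platelet symbols (right). GATA-1 2RA against GATA-1 V205M has 8 higher and 0 lower on the left and 20 higher and 2 lower on the right. The right panel counts Gata1, in which the groups differ by genotype.

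Among 25 other receptor genes, 2 were listed as higher in GATA-1 2RA than in GATA-1 V205M. P2ry1, the ADP receptor of platelets, had 104 scaled reads in GATA-1 2RA, 94.5 in GATA-1 WT, 27.3 in G1E control and only 7.59 in GATA-1 V205M. From here on, 4 levels given in a row follow that order of groups. Adra2a, an adrenergic receptor, was at 68.6, 31.5, 27.2 and 6.94. Both were thus lowest in GATA-1 V205M. Gp5 was too among the groups where it has a level, but for Gp5 that place followed from the listing.

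Among 32 other granule genes, 4 were higher in GATA-1 2RA than in GATA-1 V205M and none lower. Srgn, the proteoglycan core of secretory granules, stood at 1077, 215, 69.6 and 4.15 scaled reads, an order shared with Plek. Its ratio of GATA-1 2RA to GATA-1 V205M was 259-fold (136 to 567). Snap23, a membrane fusion protein, was 2.40-fold (2.23 to 2.58) higher in GATA-1 2RA than in GATA-1 V205M. Lyst, the lysosomal trafficking regulator, was 3.70-fold (2.67 to 5.47) higher in the same comparison, and Tgfb1 2.47-fold (1.89 to 3.36).

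The list of integrin activation and platelet signalling held 26 other genes, of which 7 were higher in GATA-1 2RA than in GATA-1 V205M and none lower. Lcp2, the adaptor SLP-76, stood at 276, 10.1, 79.0 and 34.5 scaled reads. Zyx, a protein of focal adhesions, was at 222, 13.9, 43.3 and 13.9, and the kinase gene Lyn at 294, 66.8, 17.9 and 49.2. For each of these 3, GATA-1 2RA was the highest group. Fyn, another kinase of this family, was at 126, 20.2, 104 and 28.0. Rgs18, a regulator of G protein signalling, fell from 32.4 scaled reads in G1E control to 3.15 in GATA-1 WT and 2.43 in GATA-1 V205M, and has no level in GATA-1 2RA.

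Of 17 other cytoskeleton genes, 3 were higher in GATA-1 2RA than in GATA-1 V205M (Gsn, Coro1a and Flna) and none lower. Gsn, the actin-severing protein gelsolin, stood at 187, 7.56, 9.45 and 3.65 scaled reads. Flna, the actin cross-linker filamin A, was at 241, 64.9, 568 and 110, highest in G1E control. Coro1a, an actin-binding coronin, was at 109, 8.82, 110 and 40.5, the order of groups seen for Nbeal2. Tpm1, a tropomyosin, was higher than the control in all 3 other groups, and Tuba4a, an alpha tubulin, was highest in GATA-1 WT (243, 524, 243 and 153). The highest known level of Tubb1 lay there too, but for Tubb1 that place followed from the listing.

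The 23 other transcription factors were divided, with 4 higher and 2 lower in GATA-1 2RA than in GATA-1 V205M. Elf1, an ETS factor as Fli1 is, stood at 638, 287, 120 and 63.3 scaled reads. Tal1, a partner of GATA factors, was at 333, 341, 627 and 111. Gata1 itself was at 1421, 2652, 153 and 613, so that its RNA differed between the groups in which the 10 genes are compared. Gata2, the related factor of progenitors, was at 514, 54.8, 773 and 1316, and Cbfb, the partner of RUNX factors, at 55.0, 8.82, 64.2 and 45.8.

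The label of the set was checked against the defining megakaryocyte markers Itga2b, Gp1ba, Gp1bb, Gp9, Pf4, Ppbp and Vwf. Of these, only Gp1ba was in any table, and for the others either no change passed the limits, no test was made, or the gene may have been left out for having no reads in a group. The label thus rests on the known roles of the 10 genes, with a level for 1 of these markers. Over 14 of 16 erythroid markers with 4 levels, the summed levels were 8781, 82510, 6505 and 5829 scaled reads in the same order. Over 9 of 18 mast cell markers they were 3518, 410, 5852 and 3322, and without Srgn, which the granule list holds too, 2441, 195, 5782 and 3318. Kit alone gave 2218, 179, 2429 and 1440 of these, so the sum in GATA-1 2RA was mostly Kit. Between the mutants, Srgn was listed as higher in GATA-1 2RA and Ms4a2, Tpsab1, Hdc and Il1rl1 as lower. The part of these in the levels of the 10 genes was not tested.

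Genes with the most similar levels were found for the 6 genes with 4 levels, by the distance between their log2(scaled reads + 1) centred over the 4 groups, among 1156 other genes. P2rx1 was nearest to Lat (distance 0.47), Dok2 (0.58) and Tiam1 (0.63). Nbeal2 was nearest to Cdk6 (0.29), Tagln2 (0.32) and Tmem39b (0.36), and Fli1 to Pgm1 (0.59), Nin (0.59) and Prkce (0.64). Plek was nearest to Agpat3 (0.70), Spns2 (1.19) and Srgn (1.36), and Fermt3 to Esr1 (0.68), Plekho2 (0.73) and Ube2l6 (0.78). Meis1 was nearest to Csf2rb2 (0.95), Srd5a1 (1.01) and Fes (1.05). None of the 6 was among the nearest 3 of another, and the closest such pair was Fli1 seen from Meis1, at rank 38 (distance 1.93). With 4 groups of 1 sample each, these distances describe the libraries.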

How the data were processed

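Bulk RNA-seq of 4 G1E samples was read from the 6 tables that the authors deposited, 1 for each pair of groups. Libraries were made with a TruSeq kit, per the labels' protocols, and TopHat, Cufflinks, Cuffdiff, deepTools and mm10 are named in the submitters' processing notes, without versions or roles. The signal in the deposited tables is a group's mean read count divided by size factors. The deposited ratio and log2 value compare 2 such means, and the authors' p-value is adjusted over 12931 genes. The tool that made the tables, its strand setting and the source of the spread behind its p-values were not given in the sources used here. As the plan foresaw, whole reads were recovered, for 100.0% of values in each group (relative error at most 5.0e-10), with size factors of 1.167 and 0.3574 for G1E control, 1.163 and 0.9983 for GATA-1 V205M, 1.588 for GATA-1 WT and 1.4 for GATA-1 2RA. The authors' listing was used as the test. Folds are ratios of the authors' levels, with exact Poisson or Clopper-Pearson intervals at 95%, and log2 differences add a pseudocount of 1. Alternatives used edgeR 4.0.16 in R 4.3.3, and scripts were tested on simulated data. The 10 genes and all lists were chosen with earlier results of these data known. Named from the lists were the 3 genes with the largest change each way, and from likeness the 3 nearest genes with 20 or more scaled reads in the highest group. Further genes are named to break down a count, and 1 marker is not reported here. Coordinates are from GENCODE M21 (GRCm38).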

Additional observations from a re-analysis of the deposited data

Results flagged for a closer look

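Plek moved opposite ways from G1E control in the mutants, by 2.47 on the log2 scale in GATA-1 2RA and by -3.59 in GATA-1 V205M, a difference of 6.07 that the authors' deposited table of the 2 mutants lists. P2rx1 changed by 1.98 in GATA-1 2RA, by -3.68 in GATA-1 WT and by -2.62 in GATA-1 V205M. The differences, 5.66 between GATA-1 2RA and GATA-1 WT and 4.60 between GATA-1 2RA and GATA-1 V205M, are both listed in the authors' deposited tables of those pairs. Each group is 1 sample, so none of these differences has a replicate check.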

How the results depend on the processing

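The number of the 10 genes called was recomputed with stricter limits and with edgeR on the recovered reads. edgeR's quasi-likelihood test counts the paired columns of 1 sample as replicates, so its common biological coefficient of variation (BCV) of 0.0232 to 0.0848 says nothing of the spread between samples, and its calls are no support for the listed ones. It called 5 of the 10 genes in GATA-1 WT, 7 in GATA-1 V205M and 7 in GATA-1 2RA against G1E control (Gp5 was added), 4 in GATA-1 V205M and 5 in GATA-1 2RA against GATA-1 WT, and 8 between the mutants. Over all genes it called 1695, 1036, 984, 1236, 698 and 837 in the same order. The fit of GATA-1 2RA against GATA-1 WT takes its spread from the other groups and so covered 1157 genes, fewer than the 1550 to 2040 of the other fits. With an assumed BCV of 0.4 in edgeR's exact test, 2 of the 10 genes passed in each comparison, except GATA-1 V205M against G1E control, where 0 passed (6 of 10 at an unadjusted p under 0.05, and 7 by the quasi-likelihood test). The genes that passed at this BCV were Fermt3 and Meis1 in GATA-1 2RA and Fermt3 and Tubb1 in GATA-1 WT against G1E control, P2rx1 and Meis1 in GATA-1 2RA and Plek and Tubb1 in GATA-1 V205M against GATA-1 WT, and Plek and P2rx1 between the mutants. Over all genes this BCV gave 106, 29, 59, 83, 88 and 77, and a BCV of 0.2 gave 990, 475, 418, 603, 514 and 401. A change above 4-fold left 2 genes in GATA-1 V205M against GATA-1 WT and 3 in GATA-1 2RA against GATA-1 WT. The cause was not tested. The other settings stayed within 1.5 times the listed counts.

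Of 46 log2 changes of the 10 genes, 284 recomputed values under 8 settings gave 244 within counting error of the first value, 40 beyond it and 0 listed changes of the opposite sign. Rescaling over the 1157 genes with 4 levels, themselves chosen as changed, moved G1E control by 0.90, GATA-1 2RA by 0.12 and GATA-1 V205M by 0.42 (log2, against GATA-1 WT) by median ratio, and by 0.73, 0.42 and 0.43 by total reads. Of 35 listed changes, 33 and 34 stayed beyond 2-fold. Signs changed only for unlisted values: by median ratio, Plek (-0.26) and Meis1 (-0.67) in GATA-1 WT and Fli1 (-0.09) in GATA-1 V205M, all against G1E control, and by total reads the first pair (-0.10 and -0.51). With 1 control column alone, Meis1 in GATA-1 WT (-0.14) and Tubb1 in GATA-1 V205M (0.06) changed sign. Of 74 folds read from 1 count column alone (chosen after seeing the data), 6 moved by over 1.5 times, all of P2rx1, Tubb1 or Rab27b. No paired analysis was possible because each group is 1 sample. Depth limits Tubb1, Rab27b and P2rx1 most, which rest on 2, 4 and 5 reads in their lowest group.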
